A study of Homo sapiens with 4 samples.

Results

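YAP1 and its paralog TAZ (gene WWTR1), with 8 of their well-known direct target genes, were followed in HMLE cells, a human breast epithelial line made immortal, after depletion of the RNA-binding protein hnRNP F. The 10 genes were chosen by name: YAP1, WWTR1, CYR61, CTGF, ANKRD1, AMOTL1, AMOTL2, LATS2, AJUBA and PTPN14. They were chosen with earlier results of these data known. Each has 1 row among the 60302 genes listed, and 9 of the 10 passed the filter on low values, a mean of at least 1 FPKM (fragment counts scaled to transcript length and sequencing depth) over the 4 samples. Cells had been infected with lentiviral vectors and stably expressed either a non-specific short hairpin RNA (control, 2 samples) or a hairpin against hnRNPF (knockdown, 2 samples), and polyA-selected RNA was sequenced. All samples derive from 1 parental line. The design text counts 2 derived lines per kind of hairpin, but whether they were separate infections or carried different hairpin sequences is not given in the sources used here. The p-values therefore cover only how these samples varied, which may be technical. The comparison asks how transcript levels differ when hnRNP F is depleted.

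YAP and TAZ are transcriptional coactivators at the end of the Hippo pathway. The kinases MST1/2 (genes STK4 and STK3) with the scaffold SAV1 activate the kinases LATS1 and LATS2, which phosphorylate YAP and TAZ and keep them in the cytoplasm or mark them for degradation. Unphosphorylated YAP and TAZ enter the nucleus and bind TEAD transcription factors on target genes. Several targets, such as LATS2, the angiomotin-like genes and PTPN14, in turn restrain YAP and TAZ, so they form negative feedback. The pathway responds to cell density, cell shape and attachment, and in mammary epithelium TAZ and YAP are known for links to the basal state. FPKM measure transcripts only, so the phosphorylation and location of the proteins, by which the pathway is mainly controlled, were not measured.

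The targeted gene HNRNPF stood at 154 and 153 FPKM in control cells and at 18.7 and 16.6 FPKM in knockdown cells, 8.71-fold lower, so every library matched its label. Of the 13110 tested genes it was the only 1 to pass an adjusted p of 0.05 in limma (log2 fold change -3.05, SE 0.0986, adjusted p = 0.0251), which is 0.00763% of those tested, and it no longer passed when control 1 (adjusted p = 0.262) or control 2 (adjusted p = 0.104) was left out. The lowest steps of the values imply between 77400000 and 85000000 fragments per library, if the lowest step is 1 fragment. Between 12664 and 13390 genes reached 1 FPKM. In bulk RNA, fewer cells of a kind and less RNA per cell cannot be told apart.

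None of the 9 tested genes of the YAP/TAZ group passed the adjusted threshold, and their adjusted p-values in limma lay between 0.54 and 0.999. YAP1 itself was the gene that differed most and was 1.59-fold lower in knockdown. Of the 9 genes 1, YAP1, had an unadjusted p under 0.05 in limma. Over all 13110 tested genes, 797 had such a p in either direction, and 3.02% had it and were lower. The knockdown samples were both below the 2 controls for 3 of the 9 (YAP1, AMOTL2 and LATS2), against 17.1% of all tested genes. They were both above the controls for 0 of the 9, against 17.5%. The groups overlapped for the other 6. As the genes were chosen with earlier results of these data known, these counts beside the shares are a description only. The log2 fold change was below 0 for 7 and above 0 for 2, with a median of -0.07, beside a median of 0.0012 over all tested genes. The size of the median moved when 1 library was left out, though it stayed below 0. It was -0.12 without knockdown 1 and -0.14 without knockdown 2, beside -0.057 and 0.061 over all tested genes in the same fits. Without control 1 it was -0.076 and without control 2 -0.10, beside 0.062 and -0.063 over all tested genes.

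**Figure D1:**
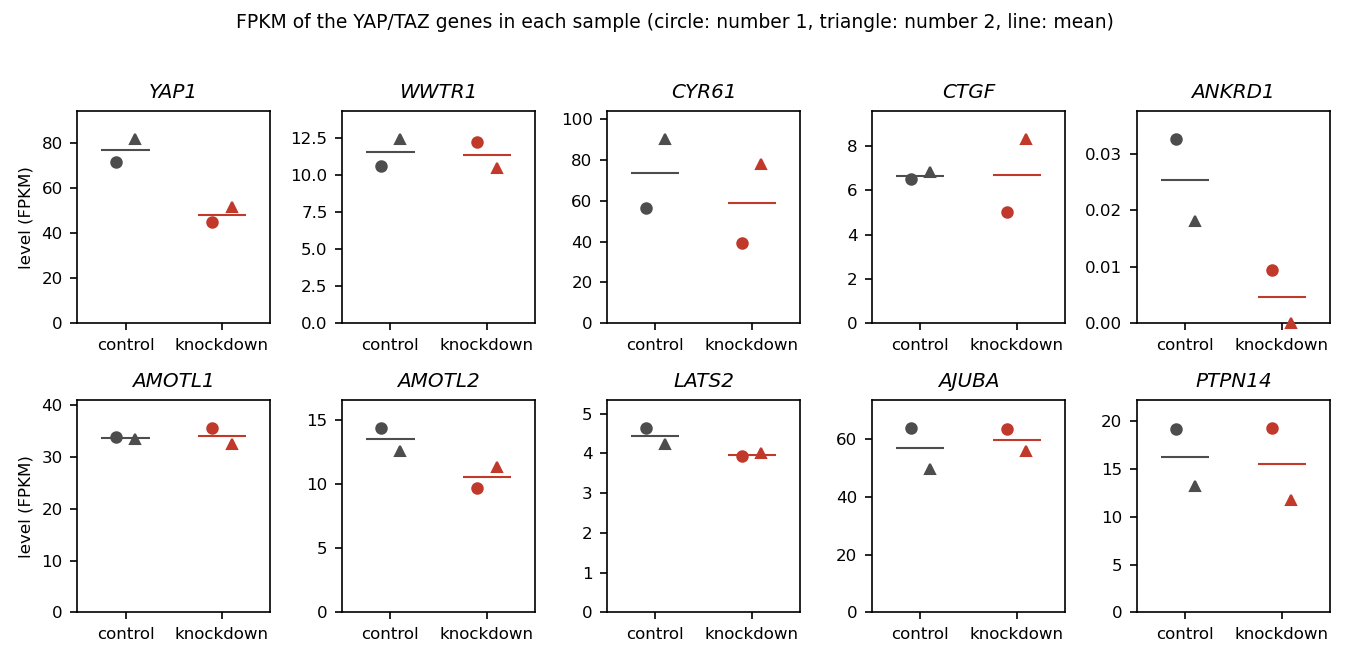
Level in FPKM (y axis, linear from 0, a scale of its own in each panel) of the 10 genes in the 2 control and the 2 knockdown samples; circles are replicate number 1, triangles number 2 and lines the mean of a group. YAP1 at 44.8 and 51.5 FPKM in knockdown cells sits below both controls, while WWTR1, CYR61, CTGF, AMOTL1, AJUBA and PTPN14 overlap between the groups.

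The coactivators gave different values. YAP1 (ENSG00000137693.13, chr11:101981192-102104154, plus strand, GRCh37) stood at 71.6 and 81.9 FPKM in control cells and at 44.8 and 51.5 FPKM in knockdown cells. The groups did not overlap: the higher knockdown sample was below the lower control. The log2 fold change on the log2(FPKM + 1) scale was -0.66 (SE 0.123, 95% interval -0.99 to -0.33), with a p of 0.00411 in limma, and the adjusted p was 0.54, so it did not pass over all genes. In the samples with number 1 the knockdown level was 0.626 of the control level, and in those with number 2 it was 0.63. No label pairs samples by number, so the closeness of these 2 ratios does not measure how well the difference repeats. With 1 sample left out, the log2 fold change ran from -0.76 to -0.56. Over all tested genes, 163 had a log2 fold change as low as that of YAP1 or lower, and 99 had a p as small or smaller.

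WWTR1 (ENSG00000018408.14, chr3:149235022-149454501, minus strand), which encodes TAZ, was at 10.6 and 12.5 FPKM in control cells and at 12.2 and 10.5 FPKM in knockdown cells. Each group held a higher and a lower sample at almost the same values. Its log2 fold change was -0.02 (SE 0.146, 95% interval -0.41 to 0.37; limma, adjusted p = 0.999), which turned positive without control 2 or without knockdown 2. The interval does not reach the log2 fold change of YAP1, but a test of the difference between these 2 genes was not made.

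YAP1 was the more abundant transcript per length in every sample. The ratio of YAP1 to WWTR1 FPKM was 6.73 and 6.56 in control cells and 3.67 and 4.9 in knockdown cells. YAP1 thus made up 87.1% and 86.8% of the summed FPKM of both genes in the controls, against 78.6% and 83.1% in knockdown. The sum itself was 82.2 and 94.3 FPKM in control cells and 57.1 and 62.1 FPKM in knockdown cells.

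Among the secreted matricellular targets, CYR61 and CTGF, which encode CCN1 and CCN2 and are the usual readouts of YAP/TAZ activity, overlapped between the groups. CYR61 (ENSG00000142871.15, chr1:86046444-86049645, plus strand) was at 56.5 and 90.4 FPKM in control cells and at 39.5 and 78.0 FPKM in knockdown cells. Its sample of number 2 was the higher in each group. The log2 fold change was -0.36 with an interval of -1.41 to 0.70 (SE 0.398; limma, adjusted p = 0.993), the widest of the 9 genes. In the samples of number 1 knockdown was at 0.699 of the control, and in those of number 2 at 0.863, though no label pairs them. The direction rests on knockdown 1, without which the log2 fold change was 0.12.

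CTGF (ENSG00000118523.5, chr6:132269316-132272513, minus strand) was at 6.49 and 6.83 FPKM in control cells. Its knockdown samples, at 5.02 and 8.33 FPKM, stood on either side of the controls. The group means of 6.66 ± 0.24 and 6.67 ± 2.35 FPKM (SD, n = 2) were nearly equal, and the log2 fold change of -0.03 had an interval of -0.69 to 0.62 (limma, adjusted p = 0.999). Differences of the size seen for YAP1 lie inside the interval of CTGF and of CYR61, so these data do not show that either gene was unaffected. CYR61 was 7.88 to 13.2 times as abundant as CTGF per length, by sample.

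ANKRD1 (ENSG00000148677.6, chr10:92671853-92681033, minus strand) encodes an ankyrin repeat protein of striated muscle and is a sensitive YAP/TAZ target in many cell lines. It was hardly detected in HMLE cells, listed at 0.0326 and 0.018 FPKM in control cells, 0.0094 FPKM in knockdown cells 1 and 0 in knockdown 2. It did not pass the filter and was not tested, and no fold change is given at these levels.

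TEAD factors, which bring YAP and TAZ to DNA, recognise GGAATG, and some promoters of these genes hold it. The windows printed are the 250 bases before the transcription start in RefSeq (GRCh38.p14, a later build than that of the FPKM table), 5′ to 3′ on the strand of the gene, with GGAATG or its complement CATTCC in capitals. In ANKRD1 the capitals also mark TGATTCA, a match to TGANTCA, the loose AP-1 pattern searched, in which N is any base and is T here. They are shown for CTGF and ANKRD1, the targets with more than 1 match, and for YAP1, the gene with the largest difference. The windows are chr6:131951373-131951622 on the minus strand for CTGF, chr10:90921088-90921337 on the minus strand for ANKRD1 and chr11:102110197-102110446 on the plus strand for YAP1.
CTGF: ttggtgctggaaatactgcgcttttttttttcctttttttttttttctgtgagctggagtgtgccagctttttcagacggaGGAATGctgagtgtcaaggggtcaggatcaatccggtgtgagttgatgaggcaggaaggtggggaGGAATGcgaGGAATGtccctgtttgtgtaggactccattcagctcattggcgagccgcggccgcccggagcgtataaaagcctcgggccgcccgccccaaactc
ANKRD1: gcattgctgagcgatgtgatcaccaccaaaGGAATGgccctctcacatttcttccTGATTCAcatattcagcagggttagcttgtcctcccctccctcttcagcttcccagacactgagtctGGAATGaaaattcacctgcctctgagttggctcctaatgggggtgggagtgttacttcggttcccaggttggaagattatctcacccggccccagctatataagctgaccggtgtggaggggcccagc
YAP1: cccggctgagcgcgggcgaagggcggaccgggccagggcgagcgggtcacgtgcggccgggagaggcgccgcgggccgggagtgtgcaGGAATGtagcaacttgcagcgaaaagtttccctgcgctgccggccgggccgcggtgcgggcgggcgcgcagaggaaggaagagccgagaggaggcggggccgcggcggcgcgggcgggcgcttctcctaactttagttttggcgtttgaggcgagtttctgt

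CTGF held 3 matches to GGAATG, which begin 169, 104 and 95 bases before the start. ANKRD1 held 2, at 220 and 128 bases before the start, and YAP1 held 1, at 162 bases. PTPN14 also held 1, on the other strand, 200 bases before the start. Counted on both strands, 4 of the 9 genes with a promoter in RefSeq's table (all but CYR61) held the motif, against 11.9% of 35116 promoters. Only the first promoter listed for each of the 9 genes was searched, while the shares over 35116 promoters count every promoter listed. The 2 kinds of share are thus not fully alike. For YAP1 and LATS2 the bases just after the start were not found in the annotated transcripts of the gene, so their windows are less sure. TGANTCA was found in 1 of the 9, ANKRD1, against 6.57% of promoters. CTGF, with the most matches, had nearly equal group means, and YAP1, with 1 match, had the largest difference. PTPN14, also with 1 match, had a log2 fold change of -0.07. Whether the number of matches goes with the difference between the groups was not tested. A match is a description of the letters, and enhancers farther away, through which much of YAP/TAZ binding takes place, were not searched.

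Of the targets that act back on the pathway, AMOTL2 stood lowest relative to its controls. AMOTL2 (ENSG00000114019.14, chr3:134074716-134094321, minus strand) encodes an angiomotin-like scaffold that binds YAP and TAZ and holds them outside the nucleus. It was at 14.4 and 12.6 FPKM in control cells and at 9.68 and 11.3 FPKM in knockdown cells, with no overlap. The log2 fold change was -0.33 (SE 0.142, interval -0.71 to 0.04; limma, adjusted p = 0.84). The knockdown level was 0.673 of the control in number 1 and 0.901 in number 2, a pairing that no label gives. Its paralog AMOTL1 (ENSG00000166025.17, chr11:94439597-94609918, plus strand) was at 33.8 and 33.5 FPKM in control cells and 35.7 and 32.5 FPKM in knockdown cells, which straddle the controls. Its log2 fold change of 0.02 had the narrowest interval of the 9 genes, -0.24 to 0.28 (limma, adjusted p = 0.999). AMOTL1 exceeded AMOTL2 by 2.35 and 2.66 times per length in the controls and by 3.69 and 2.86 times in knockdown.

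LATS2 (ENSG00000150457.8, chr13:21547171-21635686, minus strand), the YAP/TAZ kinase that is itself a target, was at 4.65 and 4.23 FPKM in control cells and 3.92 and 4.0 FPKM in knockdown cells. The groups did not overlap, though knockdown 2 and control 2 were close. The log2 fold change was -0.13 (interval -0.51 to 0.24; limma, adjusted p = 0.992).

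AJUBA (ENSG00000129474.15, chr14:23440383-23451851, minus strand) encodes a LIM-domain scaffold that binds LATS kinases at junctions and keeps them from acting on YAP. It was at 64.1 and 49.8 FPKM in control cells and 63.7 and 56.0 FPKM in knockdown cells, both of the latter within the range of the controls. Its log2 fold change was 0.08 (interval -0.34 to 0.50; limma, adjusted p = 0.999), and it turned negative without control 2 or without knockdown 1. PTPN14 (ENSG00000152104.11, chr1:214522039-214725792, minus strand), a phosphatase that binds YAP and promotes its retention in the cytoplasm, was at 19.2 and 13.2 FPKM in control cells and 19.3 and 11.8 FPKM in knockdown cells. The sample of number 1 was the higher in each group. The log2 fold change of -0.07 had an interval of -0.86 to 0.72 (limma, adjusted p = 0.999), and it was 0.18 without control 1 and 0.26 without knockdown 2.

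**Figure D2:**
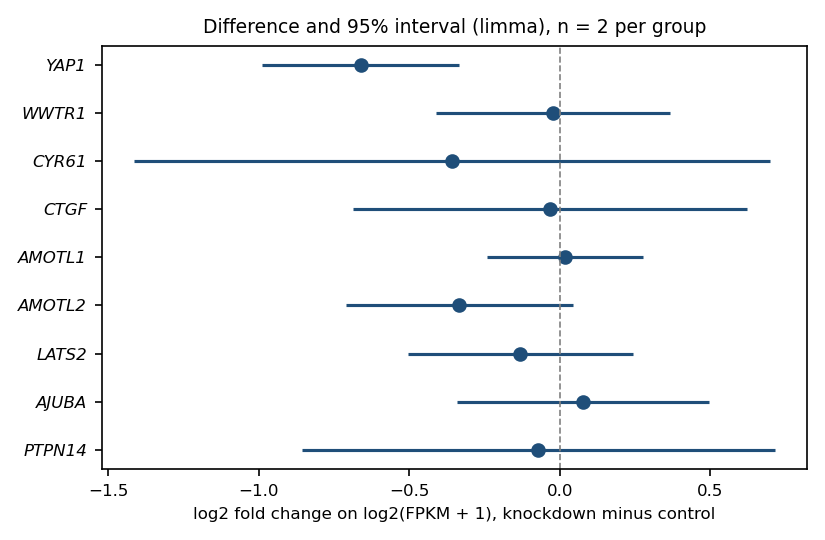
Log2 fold change of the 9 tested genes (x axis, knockdown minus control on the log2(FPKM + 1) scale; points) with the 95% interval from limma (lines), n = 2 per group. The interval of YAP1, -0.99 to -0.33, is the only 1 of the 9 that leaves out 0, with no adjustment for the number of genes tested, and that of CYR61 is the widest.

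Ordered by mean FPKM over the 4 samples, CYR61 (66.1), YAP1 (62.5) and AJUBA (58.4) were the most abundant per length. These 3 did not differ beyond their ranges: CYR61 was above YAP1 in 2 of 4 samples, and YAP1 above AJUBA in 2 of 4. AMOTL1 (33.9) was below AJUBA and above PTPN14 (15.9) in 4 of 4 samples, with no overlap of the ranges. The ranges of PTPN14, AMOTL2 (12.0) and WWTR1 (11.5) overlapped in part. CTGF (6.67), LATS2 (4.2) and ANKRD1 (0.015) followed, each clear of its neighbours. The order of YAP1 and CYR61 went with the replicate number: YAP1 was above CYR61 in control 1 and knockdown 1 and below it in control 2 and knockdown 2. The order of YAP1 and AJUBA went with the group: YAP1 was above AJUBA in both controls and below it in both knockdown samples.

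In each group, CYR61, PTPN14, AJUBA, CTGF and WWTR1 differed more between replicate numbers than the group means differed from each other. Between the samples of number 2 and number 1, CYR61 differed by 0.67 in the controls and by 0.96 in knockdown on the log2(FPKM + 1) scale. PTPN14 differed by -0.51 and -0.67, and AJUBA by -0.36 and -0.18. CTGF differed by 0.06 in the controls but by 0.63 in knockdown. WWTR1 differed by 0.21 in the controls and by -0.2 in knockdown, in opposite directions. YAP1 differed by 0.19 and 0.20, which is less than its difference of -0.66 between the groups. The labels do not say what a replicate number stands for.

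**Figure D3:**
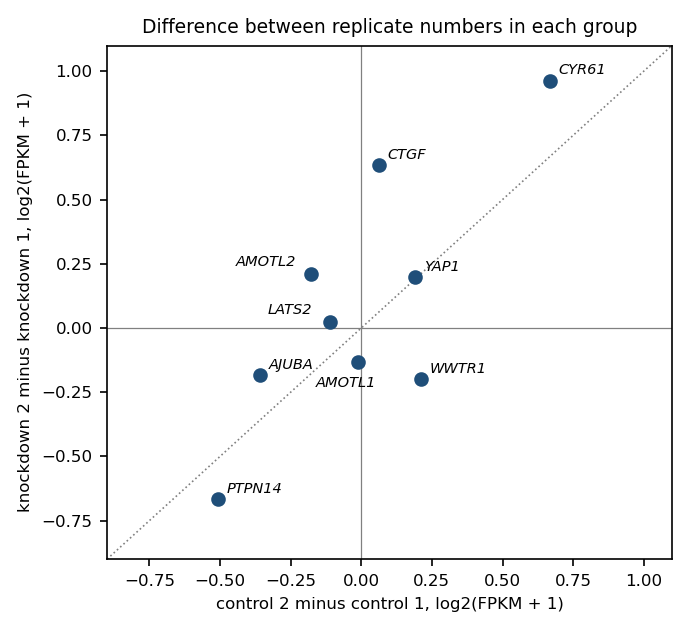
Difference between sample number 2 and sample number 1 on the log2(FPKM + 1) scale in the controls (x axis) and in knockdown (y axis) for the 9 tested genes; the dotted line marks equal differences. CYR61 (0.67 and 0.96) and PTPN14 (-0.51 and -0.67) lie far from 0 on both axes, and YAP1 (0.19 and 0.20) lies on the dotted line.

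The TEAD factors, through which YAP and TAZ bind DNA, and the vestigial-like cofactors, which compete for TEAD, were a list of 8 genes of which 7 were tested. None passed (limma, adjusted p from 0.916 to 0.999), 5 had a log2 fold change below 0 and 2 above, and the median was -0.16. TEAD2 (16.8 and 17.4 FPKM in control cells, 14.96 and 15.5 FPKM in knockdown cells) and TEAD4 (15.3 and 13.7 FPKM, then 13.5 and 12.5 FPKM) were the 2 of the 7 with both knockdown samples below both controls, against 17.1% of all tested genes. TEAD3 was at 13.1 and 11.7 FPKM in control cells and at 6.3 FPKM in knockdown cells 1 but 11.9 FPKM in knockdown cells 2, so 1 library sets its difference. VGLL1 was at 5.74 ± 2.04 FPKM in control cells and 4.49 ± 1.24 FPKM in knockdown cells (SD, n = 2), and VGLL2 was listed at 0 in all 4 samples.

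Of 20 genes of the Hippo kinase cascade and its upstream regulators, 18 were tested and none passed (limma, adjusted p from 0.816 to 0.999). There were 10 below 0 and 8 above, with a median of -0.02. Knockdown lay below both controls for 3 of the 18, against 17.1% of all tested genes, and above both for 2, against 17.5%. SAV1, the scaffold of the MST kinases, was at 26.9 and 26.9 FPKM in control cells and 21.8 and 22.7 FPKM in knockdown cells (log2 fold change -0.26, SE 0.0941; limma, adjusted p = 0.816). MOB1A, an activator of the LATS kinases, was at 38.1 ± 0.721 FPKM in control cells and 34.3 ± 0.594 FPKM in knockdown cells (SD, n = 2). MAP4K4, a kinase that can act on LATS in parallel to MST, was at 59.5 and 68.6 FPKM in control cells and 83.5 and 74.3 FPKM in knockdown cells. The related kinase gene TNIK was at 1.92 ± 0.0905 FPKM in control cells and 2.66 ± 0.227 FPKM in knockdown cells. AMOT, the third angiomotin gene, stayed at or under 0.035 FPKM in all 4 samples and was not tested.

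A further 16 genes of a published YAP/TAZ target signature, also chosen with earlier results of these data known, were read in the same way. Of these 14 were tested and none passed (limma, adjusted p from 0.54 to 0.999), with 9 below 0, 5 above and a median of -0.06. Knockdown lay below both controls for 3 of the 14, against 17.1% of all tested genes, and above both for 1, against 17.5%. The unadjusted p in limma was under 0.05 for 2 of the 14, both lower. Over all 13110 tested genes, 797 had such a p in either direction, and 3.02% had it and were lower. NT5E, which encodes the ecto-enzyme CD73, was at 78.5 and 76.7 FPKM in control cells and 55.0 and 56.8 FPKM in knockdown cells (log2 fold change -0.47, SE 0.0848; limma, adjusted p = 0.54). AXL, a receptor tyrosine kinase gene, was at 62.6 and 53.5 FPKM in control cells and 35.3 and 38.5 FPKM in knockdown cells (log2 fold change -0.64, SE 0.12; limma, adjusted p = 0.54). Both thus had group differences of the order of that of YAP1, with no overlap. F3, which encodes tissue factor, went the other way, at 191 and 185 FPKM in control cells and 247 and 209 FPKM in knockdown cells, again without passing (limma, adjusted p = 0.84). CCDC80 was at 2.38 ± 0.539 FPKM in control cells and 1.8 ± 0.28 FPKM in knockdown cells (SD, n = 2).

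CYR61, CTGF and many cytoskeletal genes also respond to serum response factor (SRF) with its coactivators of the MRTF family, so 16 such genes were listed. Of the 15 tested, 10 were above 0 and 5 below, with a median of 0.04, and none passed (limma, adjusted p from 0.636 to 0.999). Knockdown lay above both controls for 4 of the 15, against 17.5% of all tested genes, and below both for 2, against 17.1%. The tropomyosin genes had the smallest p: TPM2 was at 86.5 and 77.4 FPKM in control cells and 124 and 109 FPKM in knockdown cells, and TPM1 at 55.6 and 52.3 FPKM and then 72.6 and 64.2 FPKM. ACTA2, the smooth muscle actin gene, was at 13.9 and 12.5 FPKM in control cells and at 9.96 and 10.8 FPKM in knockdown cells. TGFB1I1, a focal adhesion adaptor gene, was at 15.6 ± 0.0806 FPKM and 18.4 ± 0.421 FPKM (SD, n = 2).

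**Figure D4:**
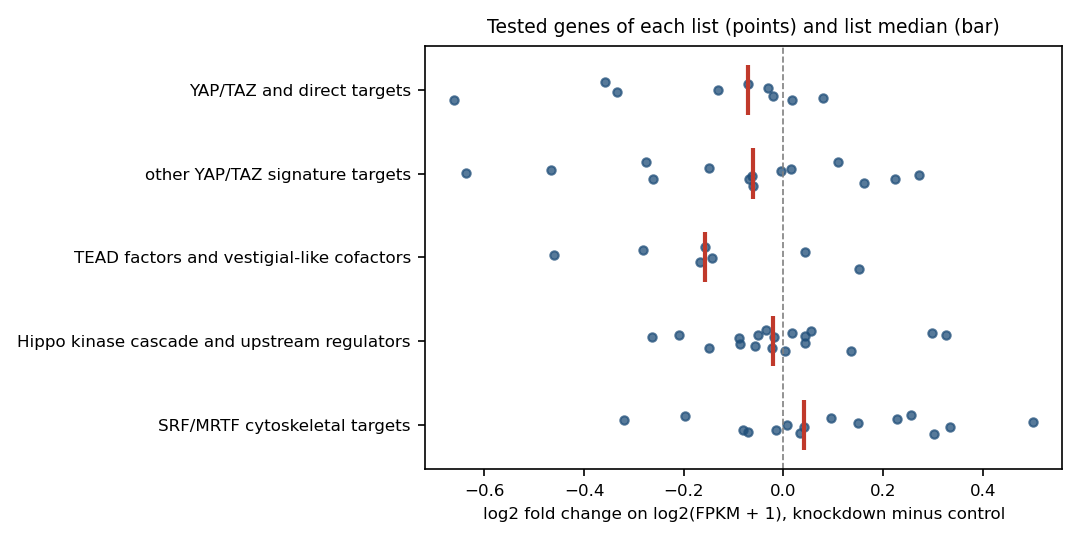
Log2 fold change (x axis, knockdown minus control on the log2(FPKM + 1) scale) of each tested gene (points, spread vertically at random for legibility) in 5 lists, with the median of each list as a bar. The medians run from -0.16 for the TEAD and vestigial-like list to 0.04 for the SRF/MRTF list, and the lowest points are YAP1 at -0.66 and AXL at -0.64.

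Markers of the labelled mammary epithelium were present: 10 of 10 passed the filter, with KRT5 at 3203 to 4878 FPKM and CDH1 at 37.6 to 90.0 FPKM. Their summed level was 8700 and 12140 FPKM in control cells and 10580 and 11700 FPKM in knockdown cells, so the groups overlapped. None passed, with KRT18 (174 ± 2.96 and 134 ± 17.4 FPKM), EPCAM (51.2 ± 7.41 and 38.8 ± 0.202 FPKM), KRT17 and TP63 having the smallest p (SD, n = 2; limma, adjusted p from 0.782 to 0.864). Over the list, knockdown was above both controls for 3 (KRT17, TP63 and KRT8), against 17.5% of all tested genes, and below both for 2 (KRT18 and EPCAM), against 17.1%, with overlap for the other 5. Neither the basal nor the luminal markers all lay to 1 side: basal KRT5 had a log2 fold change of -0.14 and overlapping groups, and luminal KRT8 had 0.14, opposite to its partner KRT18. Of the 8 fibroblast markers, 6 were under the filter, and COL1A1 (9.81 ± 0.817 and 11.9 ± 0.594 FPKM) and TWIST1 (2.01 ± 0.348 and 2.45 ± 0.205 FPKM) lay above both controls in knockdown, as 17.5% of all tested genes did, and did not pass. The sum of the fibroblast list was 14.1 and 11.9 FPKM in control cells and 15.1 and 15.8 FPKM in knockdown cells. Of the endothelial and immune markers, 7 of 8 are listed, 6 of these stayed at or under 0.057 FPKM, and CD68 was at 12.1 ± 0.126 and 11.3 ± 0.0737 FPKM. What part such markers' differences have in the values of the YAP/TAZ genes was not tested.

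The genes whose pattern over the 4 samples was most like that of CTGF, by the root mean square difference of log2(FPKM + 1) after each gene was centred on its own mean, were RMI2 (0.0552), VGLL4 (0.0627) and GJC1 (0.063). The median difference from CTGF over 8725 genes was 0.286, and 27 genes lay within 0.1. VGLL4, 1 of the TEAD cofactors listed above, was at 10.6 and 11.9 FPKM in control cells and 9.54 and 14.1 FPKM in knockdown cells. Most like CYR61 were FOXD1 (0.0371), VPS72 (0.0836) and IGFBP2 (0.117), beside a median of 0.5, and 2 genes lay within 0.1. FOXD1 was at 5.9 and 10.6 FPKM in control cells and 4.16 and 8.66 FPKM in knockdown cells, so it too was higher in the samples of number 2. With 4 samples, such likeness among so many genes describes these libraries alone.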

How the data were processed

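The deposited table gives FPKM for each gene and sample, already scaled by the authors for gene length and depth, per the file headers. GRCh37, STAR 2.5.3a and Cuffdiff 2.2.1 come from the submitters' processing notes; which tool made the FPKM, and on which annotation, is not given in the sources used here. Genes averaging 1 FPKM or more were compared on log2(FPKM + 1), which understates changes of low genes, with limma 3.58.1 in R 4.3.3 (trend, no covariate, two-sided, Benjamini-Hochberg over 13110 genes). Folds are ratios of mean FPKM. Whole reads were not recovered: 43.2% to 46% of low values in single-exon genes were whole multiples of the lowest step within 0.02, so no count test was run. An exact permutation test of 2 against 2 samples cannot reach 0.05, and none was run. The fit was also run on simulated data, with independent errors drawn from its own variances and planted changes larger than that of YAP1. That run does not show how the fit performs for smaller changes or for correlated samples.

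The genes and lists were chosen with earlier results of these data known, so lists are described by counts and medians with no test. Named are HNRNPF, the 10 genes, the 4 genes of smallest p in each other list, and the 3 genes most like CTGF and CYR61 among those of at least 5 FPKM; others named, such as VGLL2, AMOT, KRT5 and CDH1, were chosen after their values were seen. Coordinates are those of the table, 1-based. Promoters are from RefSeq; a planned look at motifs in the proteins was not made. Alternatives were other pseudocounts, filters, scalings and fits, the replicate number as a block, leaving out each sample and adding overlapping genes.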

Additional observations from a re-analysis of the deposited data

How the results depend on the processing

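YAP1 kept its direction under 14 alternatives (log2 fold change from -0.76 to -0.56) and never passed, with adjusted p-values from 0.271 to 0.998; AMOTL2 (-0.44 to -0.23) and LATS2 (-0.19 to -0.08 under 13, as it is under a filter at 5 FPKM) also stayed below 0 and did not pass. Adding the FPKM of overlapping rows, none of which exceeded 0.753 FPKM, turned no direction. The signs that turned did so when 1 sample was left out. Over the 4 such fits WWTR1 ran from -0.13 to 0.084 (above 0 without control 2 or knockdown 2), CYR61 from -0.84 to 0.12 (above 0 without knockdown 1), CTGF from -0.35 to 0.28 (0.00028 without control 2, 0.28 without knockdown 1), AMOTL1 from -0.048 to 0.084 (below 0 without knockdown 1), AJUBA from -0.10 to 0.26 (below 0 without control 2 or knockdown 1) and PTPN14 from -0.40 to 0.26 (above 0 without control 1 or knockdown 2). The median of the 9 tested YAP/TAZ genes ran from -0.14 to -0.076 in these fits, and that of all tested genes from -0.063 to 0.062; the cause was not tested.

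The number of genes called over the whole table was 1 and became 0 with no filter on low values, without the intensity trend and with the replicate block (smallest adjusted p in limma 0.259, 0.0995 and 0.164). Leaving out 1 sample gave between 0 and 2 calls. The second call, without knockdown 2, was the readthrough gene BLOC1S5-TXNDC5. Unadjusted, 797 genes had a p under 0.05. With the replicate block the SE of CYR61 went from 0.398 to 0.108 (adjusted p = 0.342 in limma, from an unadjusted p of 0.0361), that of PTPN14 from 0.296 to 0.0885 (adjusted p = 0.736) and that of YAP1 from 0.123 to 0.073 (adjusted p = 0.271), and no YAP/TAZ gene passed. The deviations of same-numbered samples correlated at 0.39 over 13110 genes, which with 2 pairs does not establish pairing. Leaving 1 sample in a group assumes that it varies like the others. Values as low as those of ANKRD1, at or under 0.0326 FPKM, are too low for a comparison at this depth. The filter at a mean of 1 FPKM was a choice and not a limit set by depth.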

Other observations

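YAP1 lies beside the apoptosis inhibitor genes BIRC3 and BIRC2 on chromosome 11, a stretch that is amplified together in some tumours. Whether copy number has a part in the values here was not tested. BIRC3 (chr11:102188181-102210134) was at 21.1 and 13.8 FPKM in control cells and at 12.2 and 8.24 FPKM in knockdown cells, with no overlap (log2 fold change -0.71; limma, adjusted p = 0.83). BIRC2 (chr11:102217942-102249401) was at 9.22 and 7.72 FPKM in control cells and at 7.71 and 8.62 FPKM in knockdown cells, which overlap. TMEM123, the next tested gene, was at 67.5 and 60.5 FPKM and then 56.6 and 57.3 FPKM (log2 fold change -0.16; limma, adjusted p = 0.914). For BIRC3 and TMEM123 both knockdown samples lay below both controls, as for 17.1% of all tested genes. On the other side of YAP1, C11orf70 was at 1.85 and 2.02 FPKM in control cells and 1.58 and 2.74 FPKM in knockdown cells, which overlap. These neighbours were chosen after the value of YAP1 was seen.

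The 3 genes with the pattern most like that of YAP1 over the 4 samples, by the same root mean square difference, were TMEM184B (0.036), DDIT4 (0.0489) and FURIN (0.0621), beside a median of 0.375 over 8725 genes. DDIT4, an inhibitor of mTORC1 signalling induced by stress, was at 219 and 250 FPKM in control cells and 127 and 158 FPKM in knockdown cells. FURIN, a proprotein convertase gene, was at 41.1 and 45 FPKM and then 22.7 and 28.9 FPKM. This search too was added after the value of YAP1 was seen.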
